A study of Mus musculus with 8 samples.

Results

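The NF-kB response and its regulators were followed here as a module of 36 listed genes, found by symbol among the 32285 genes of the count tables of CD45+ cells from mouse mammary tumors. All 36 symbols were present, each as 1 protein-coding gene, and all 36 passed the filter on low counts in every test across genes. The list was set by symbol, with earlier results of these data known. The members were the Rel-family subunits (*Nfkb1*, *Nfkb2*, *Rel*, *Rela*, *Relb*), the IkB proteins (*Nfkbia*, *Nfkbib*, *Nfkbie*, *Nfkbiz*, *Bcl3*), further negative regulators (*Tnfaip3*, *Tnip1*, *Zc3h12a*, *Irak3*), signal transducers (*Peli1*, *Malt1*, *Map3k8*, *Ripk2*, *Traf1*, *Irak2*), survival and stress genes (*Birc3*, *Cflar*, *Bcl2a1d*, *Ier3*, *Sod2*, *Gadd45b*) and other response genes (*Tnf*, *Cd40*, *Icam1*, *Ccrl2*, *Clec4e*, *Tnfaip2*, *Marcksl1*, *Maff*, *Pim1*, *Ier5*).

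NF-kB transcription factors are dimers of Rel-family proteins that IkB proteins hold in the cytoplasm of resting cells. Signals from Toll-like, tumor necrosis factor and antigen receptors lead to IkB phosphorylation and breakdown, after which the dimers enter the nucleus and switch on inflammatory and survival genes. Many of these targets encode brakes on the same pathway, such as IkB alpha from *Nfkbia* and the ubiquitin-editing enzyme from *Tnfaip3*, so that the response of macrophages and lymphocytes is self-limiting.

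Droplet-based 3′ RNA-seq had been carried out on CD45+ cells of tumors grown from E0771, a mouse mammary carcinoma line, or from E0771-Res1 or E0771-Res2, each a resistant line set up from a tumor that had relapsed after paclitaxel and anti-PD-1 therapy. Tumors were implanted orthotopically and taken on day 18, with 1 tumor per mouse, and none of the labels names a treatment of these mice or their age. Used here were 2 parental mice (replicates 1 and 3), 3 E0771-Res1 and 3 E0771-Res2 mice, and another parental mouse that the paper describes was not analysed here. Each resistant line is 1 derivative, so a difference between lines is a difference between these derivatives. P-values between lines weigh a difference against the spread between mice. Those of gates and interactions weigh it against the spread left with mouse as a block.

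The tables held 11430 cells, of which 10605 (92.8%) passed the filters of 500 to 6000 genes and under 10% mitochondrial counts, with 1727 parental, 3561 E0771-Res1 and 5317 E0771-Res2 cells and no barcode shared between mice. Deposited totals ran from 5036667 to 18894504 unique molecular identifiers (UMIs) per mouse, and the median per kept cell lay between 8058 and 8112 for parental, between 7631 and 8160 for E0771-Res1 and between 5589 and 7001 for E0771-Res2 mice. Lymphoid cells were gated on at least 2 UMIs over *Cd3d*, *Cd3e*, *Cd3g* and *Ncr1* (1284 cells, 68 to 288 per mouse). Myeloid cells were gated on at least 5 UMIs over *Lyz2*, *Csf1r*, *Cd68* and *Itgam*, and were called C1q-high at 10 or more UMIs of the complement gene *C1qa* (2322 cells, 103 to 576 per mouse) and C1q-low at 1 or none (4301 cells, 286 to 776 per mouse). Cells that met the lymphoid gate were left out of the myeloid gates. The marker lists hold genes that set the gates (*Cd3d*, *Cd3e*, *Cd3g*, *Ncr1* and *C1qa*). Their sums therefore describe the gates and are no independent check of them. The 9 T and NK markers summed to 3294 to 5199 counts per 1000000 UMIs (CPM) in lymphoid cells against at most 140.4 in either myeloid gate, and the 7 macrophage markers to 19199 to 27051 CPM in C1q-high against 2131 to 3028 in C1q-low cells. The lymphoid gate also carried 3875 to 8340 CPM of macrophage markers. Only 289 of its 1284 cells had fewer than 5 UMIs over *Lyz2*, *C1qa*, *C1qb* and *C1qc*, and these form the strict lymphoid gate used below.

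A consensus binding motif of NF-kB occurs upstream of several members, and 6 stretches of 80 bases are shown because they hold it before the start sites of inhibitors (*Nfkbia*, *Nfkbie*, *Tnfaip3*, *Tnip1*), a subunit (*Rel*) and a gene that moved between tumors (*Ccrl2*). They are RefSeq sequence of GRCm38.p6, the assembly behind the mm10 build of the counts, written 5′ to 3′ on the gene's strand, and capitals mark a match to the kappaB consensus.

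*Nfkbia*, chr12:55492648-55492727, minus strand: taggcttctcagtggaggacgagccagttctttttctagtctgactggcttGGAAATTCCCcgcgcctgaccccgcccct
*Nfkbie*, chr17:45555559-45555638, plus strand: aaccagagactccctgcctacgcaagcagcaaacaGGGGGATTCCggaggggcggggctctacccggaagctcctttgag
*Rel*, chr11:23771017-23771096, minus strand: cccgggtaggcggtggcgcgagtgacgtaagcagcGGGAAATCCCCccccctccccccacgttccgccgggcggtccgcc
*Tnfaip3*, chr10:19015411-19015490, minus strand: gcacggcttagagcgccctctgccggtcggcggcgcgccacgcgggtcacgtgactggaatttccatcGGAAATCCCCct
*Tnip1*, chr11:54962953-54963032, minus strand: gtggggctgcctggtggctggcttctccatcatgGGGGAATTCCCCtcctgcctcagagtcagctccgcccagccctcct
*Ccrl2*, chr9:111057530-111057609, minus strand: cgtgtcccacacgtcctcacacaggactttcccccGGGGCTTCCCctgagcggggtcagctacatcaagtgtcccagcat

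The motif searched was the 10-base kappaB consensus, read as GGG, a purine, any 2 bases, 2 pyrimidines and CC, on both strands of the 250 bases before each start site. Matches that overlap, as in *Rel* and *Tnip1*, are capitalized as 1 run. At least 1 match lay in 11 of the 29 members with a promoter window in the table (37.9%) and in 2225 of 27025 genes overall (8.23%). The other 5 members with a match were *Nfkb2*, *Tnfaip2*, *Sod2*, *Ier3* and *Maff*. *Nfkbiz*, *Nfkb1*, *Relb*, *Cd40*, *Malt1*, *Map3k8* and *Ripk2* had no window. A match is a run of letters and not a measured binding site.

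As a summary, the UMIs of the 36 members were added up per mouse and given per 10000 UMIs, with mitochondrial, Rpl, Rps and Gm genes left out. In all kept cells this score was 102.1 and 101.7 in the parental mice, 92.6, 115.4 and 129.8 in the E0771-Res1 mice and 92.5, 96.9 and 100.3 in the E0771-Res2 mice. E0771-Res1 replicate 3 stood highest, and the E0771-Res1 mice overlapped with both other lines. *Nfkbia* gave 16.7% of the module's UMIs, followed by *Pim1* (9.2%), *Gadd45b* (9.04%), *Ier5* (7.55%) and *Ier3* (5.37%), so the score leans on these genes. These are 3′ UMI counts and were not scaled to transcript length.

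The score was lower in C1q-high than in C1q-low myeloid cells in every mouse. It was 83.3 and 86.2 in C1q-high cells of parental mice, 66.6, 80.4 and 104.1 for E0771-Res1 and 64.2, 66.8 and 67.5 for E0771-Res2 mice. C1q-low cells gave 116.3 and 111.4, then 121.2, 136.2 and 153.6, then 114.0, 114.1 and 125.1 in the same order. Even the highest C1q-high value, from E0771-Res1 replicate 3, lay below every C1q-low value. Cells with 2 to 9 *C1qa* UMIs (1890 cells) ran from 103.2 to 135.8, above C1q-high cells in 8 of 8 mice and below C1q-low cells in 7 of 8. Lymphoid cells gave 76.3 to 105.6 and lay below C1q-low cells in 8 of 8 mice, but below C1q-high cells in 2 of 8. The order against C1q-high cells depended on the gate. Under the strict lymphoid gate, both parental mice (70.9 and 61.6) and E0771-Res1 replicates 2 and 3 (73.7 and 91.2) lay below their C1q-high values. The other mice lay above, and all lay below C1q-low cells. That gate left as few as 18 cells in a mouse. With single cells thinned to 2500 UMIs, which left out 36 of 2322 C1q-high and 640 of 4301 C1q-low cells, the median score per mouse was 56 to 108 in C1q-high and 100 to 144 in C1q-low cells, and it was lower in C1q-high cells of each mouse.

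**Figure D1:**
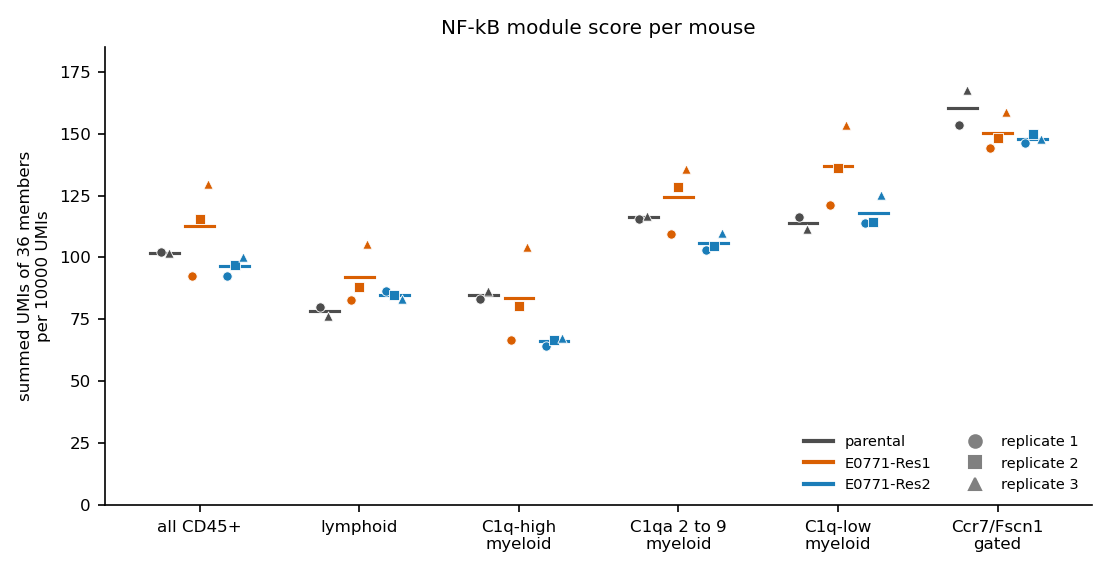
Summed UMIs of the 36 members per 10000 UMIs (vertical axis) in each mouse (points), by cell gate and tumor line, with the mean of each line as a bar. In C1q-high cells the E0771-Res2 mice sit between 64.2 and 67.5, below both parental mice, and E0771-Res1 replicate 1 (66.6) lies in that range. E0771-Res1 replicate 3 is the highest point in all cells, C1q-high, C1q-low and lymphoid cells.

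C1q-high myeloid cells held less of nearly every member than C1q-low cells of the same mice. In edgeR's quasi-likelihood test with mouse as a block, 33 of 36 members were lower and none was higher at an adjusted p under 0.05, where 28.8% of the 9046 genes tested were lower. The median log2 difference was -0.66 over the members and 0.01 over all genes tested. The call of *Zc3h12a* and that of *Maff* ended without the mouse block. All 8 mice gave the lower CPM in C1q-high cells for 27 of 36 members, against 13.4% of the 9869 genes with at least 100 UMIs. With any 1 mouse left out, 33 or 34 members were called.

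The largest difference was in *Clec4e*, which encodes Mincle, a C-type lectin receptor that senses mycobacterial glycolipids and dead cells. It ran from 119 to 267 CPM (median 137) in C1q-high and from 525 to 767 CPM (median 598) in C1q-low cells of the 8 mice, with no overlap, a log2 difference of -2.12 ± 0.15 (SE; edgeR adjusted p = 8.66e-06). *Malt1*, the paracaspase that links antigen receptors to NF-kB, ran from 147 to 364 CPM (median 172) in C1q-high and from 416 to 698 CPM (median 487) in C1q-low cells (log2 difference -1.53 ± 0.15, edgeR adjusted p = 5.84e-05). *Traf1*, an adaptor of tumor necrosis factor receptors, ran from 118 to 238 and from 317 to 500 CPM (-1.41 ± 0.19, edgeR adjusted p = 0.000451). For all of these genes the highest C1q-high mouse lay below the lowest C1q-low mouse.

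*Ripk2*, the kinase of the NOD receptors, ran from 11.4 to 19.8 CPM in C1q-high and from 26.3 to 34.1 CPM in C1q-low cells (log2 difference -1.15 ± 0.10, edgeR adjusted p = 6.46e-10). *Pim1*, a survival kinase, ran from 492 to 865 and from 1068 to 1538 CPM (-1.14 ± 0.06, edgeR adjusted p = 1.12e-12). Here, too, the gates did not overlap. By role, all 5 Rel-family genes, all 6 transducers and all 10 other response genes were lower, as were 4 of 5 IkB genes, 3 of 4 further negative regulators and 5 of 6 survival and stress genes.

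The subunit *Rel* fell by 0.88 ± 0.07 on the log2 scale, *Nfkb1* by 0.79 ± 0.06, *Relb* by 0.65 ± 0.09, *Nfkb2* by 0.61 ± 0.07 and *Rela*, the p65 subunit, by 0.49 ± 0.07, with edgeR adjusted p from 8.16e-12 (*Nfkb1*) to 5.2e-06 (*Relb*). *Nfkbia* ran from 847 to 2078 CPM (median 1181) in C1q-high and from 1671 to 3250 CPM (median 1989) in C1q-low cells and so overlapped between mice, but was lower within each mouse (-0.94 ± 0.07, edgeR adjusted p = 2.17e-07). *Tnfaip3* fell by 0.60 ± 0.06 and *Tnf* by 0.60 ± 0.10 (edgeR adjusted p = 2.31e-07 and 0.000353). The members not called were *Tnip1* (log2 difference -0.22 ± 0.10, edgeR adjusted p = 0.0969), which encodes a partner of the *Tnfaip3* enzyme, the nuclear IkB gene *Nfkbiz* (-0.08 ± 0.08, edgeR adjusted p = 0.415) and *Bcl2a1d*, an anti-apoptotic BCL2-family gene (0.06 ± 0.12, edgeR adjusted p = 0.695). *Nfkbiz* was higher in C1q-high cells in 4 of 8 mice and *Bcl2a1d* in 5 of 8. *Bcl2a1d* has near-identical copies in the genome, so the split of its counts between copies is uncertain.

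Other members called lower are given next, of which *Icam1* and *Zc3h12a* were each higher in 1 of 8 mice. *Irak2*, a kinase that prolongs Toll-like receptor signals, ran from 32.8 to 55.7 CPM (median 47.4) in C1q-high and from 74.2 to 93.5 CPM (median 81.6) in C1q-low cells, without overlap (log2 difference -0.96 ± 0.07, edgeR adjusted p = 2.1e-11). *Sod2* ran from 236 to 348 CPM (median 281) and from 391 to 586 CPM (median 491) (-0.92 ± 0.05, edgeR adjusted p = 3e-14), again with every C1q-high mouse below every C1q-low mouse. The IkB beta gene *Nfkbib* ran from 87.0 to 129 CPM (median 105) and from 127 to 179 CPM (median 143), with a small overlap (-0.55 ± 0.06, edgeR adjusted p = 6.66e-09). *Birc3*, an inhibitor of apoptosis, and *Cflar*, which encodes the caspase regulator FLIP, fell by 0.76 ± 0.08 and 0.62 ± 0.06 on the log2 scale. *Ier5*, an immediate early gene, fell by 0.67 ± 0.05 and *Icam1*, an adhesion molecule of activated leukocytes, by 0.46 ± 0.09. *Zc3h12a*, which encodes the RNA-degrading enzyme Regnase-1, had the smallest difference among the members called (-0.27 ± 0.08, edgeR adjusted p = 0.00581), and its ranges of 48.1 to 97.1 and 53.5 to 105 CPM overlapped widely.

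Among 40 other genes of the pathway (receptors, adaptors, kinases and ubiquitin ligases), 39 were tested, of which 19 were lower and 4 higher in C1q-high cells with a median of -0.19. Of 12 dissociation stress genes, 7 were lower and none higher, and their part in the member differences was not tested. The median log2 difference was -0.72 over the 11 members with a kappaB match and -0.63 over the 18 with a window and no match.

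In edgeR's test lymphoid cells held less of most members than C1q-low cells, while against C1q-high cells the counts called were near the shares of all genes. Against C1q-low cells, 33 members were lower and 1, *Tnfaip3*, was higher, where 32.8% of the 8872 genes tested were lower and 31.1% higher, and the median was -0.76 over the members and 0.01 over all genes tested. *Tnfaip3* ran from 354 to 541 CPM (median 406) in lymphoid, from 195 to 360 (median 257) in C1q-low and from 157 to 325 (median 178) in C1q-high cells. The lymphoid values overlapped only narrowly with the C1q-low values, and the difference was 0.33 ± 0.06 on the log2 scale (edgeR adjusted p = 1.31e-05). *Clec4e* (-1.98 ± 0.08), *Cd40* (-1.39 ± 0.09), *Tnfaip2* (-1.39 ± 0.13), *Ier3* (-1.35 ± 0.10) and *Sod2* (-1.23 ± 0.08) had the largest differences to C1q-low cells, with edgeR adjusted p of at most 4.73e-06 (*Tnfaip2*). *Cd40* encodes the costimulatory receptor of antigen-presenting cells, and *Sod2* the manganese superoxide dismutase of mitochondria. *Zc3h12a* and *Peli1* were not called, though in plain CPM *Peli1* was higher in lymphoid cells in 8 of 8 mice (mean 183 against 153). *Bcl2a1d*, called lower, had the higher plain CPM in lymphoid cells in 6 of 8 mice (mean 269 against 245), and *Traf1* in 4 of 8. In plain CPM, 23 of 36 members were lower and 2 higher in lymphoid cells in all 8 mice. Of the 9838 genes with at least 100 UMIs, 12.6% were lower and 36.4% higher in all mice. Of the 12 dissociation stress genes, 8 were also lower in lymphoid than in C1q-low cells and none was higher, among them *Atf3* (-1.34), *Zfp36* (-1.14) and *Fos* (-0.89), and their part in the member differences was not tested.

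In edgeR's test the other key members were also lower in lymphoid than in C1q-low cells, *Tnf* by a log2 difference of -1.09 ± 0.07, *Rel* by -0.72 ± 0.06, *Nfkbia* by -0.69 ± 0.06, *Rela* by -0.48 ± 0.08 and *Nfkb1* by -0.36 ± 0.07. *Relb* (-0.23 ± 0.09) and *Nfkb2* (-0.22 ± 0.08) were called at edgeR adjusted p of 0.0253 and 0.0121, yet their sign turned when myeloid-marked cells were taken out of the lymphoid gate, to 0.11 (adjusted p = 0.555) and 0.03 (adjusted p = 0.885). Under the same strict gate the calls of *Nfkb1* and *Traf1* against C1q-low cells ended. The sign of *Relb* also turned, to 0.02 (adjusted p = 0.863), when dendritic cells were taken out of the C1q-low gate. In plain CPM, without the scaling of the test, *Relb* and *Nfkb2* were already higher in lymphoid cells in 5 of 8 mice. With the main gates *Relb* averaged 82.8 against 76.8 CPM and *Nfkb2* 86.0 against 82.0 CPM.

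Against C1q-high cells, 10 members were higher and 13 lower in lymphoid cells, where 30.2% of the 8634 genes tested were higher and 29.9% lower, with a median of -0.06 over the members and -0.00 over all genes tested. The counts called were near these shares and are not a trait of the members. In plain CPM, 7 of 36 members were higher and 3 lower in all 8 mice. Of the 9826 genes with at least 100 UMIs, 28% were higher and 12.6% lower in all mice. *Traf1* ran from 321 to 403 CPM in lymphoid cells, above the 118 to 238 CPM of C1q-high cells in every mouse (log2 difference 1.05 ± 0.15, edgeR adjusted p = 0.000214). *Tnfaip3* was higher by 0.94 ± 0.08, the Pellino ubiquitin ligase gene *Peli1* by 0.61 ± 0.09, *Nfkb1* by 0.43 ± 0.07 and *Relb* by 0.42 ± 0.12 (edgeR adjusted p of at most 0.00827). *Nfkb2* (0.39 ± 0.08), *Nfkbia* (0.26 ± 0.10, edgeR adjusted p = 0.0443) and *Rel* (0.17 ± 0.07, edgeR adjusted p = 0.0378) were also higher, and *Rela* was not called (0.02 ± 0.09). *Cd40* (-0.87 ± 0.12), *Irak3* (-0.76 ± 0.13), *Tnfaip2* (-0.73 ± 0.11), *Nfkbiz* (-0.64 ± 0.07) and *Ier3* (-0.56 ± 0.11) were lower, and so was *Tnf* (-0.48 ± 0.08), with edgeR adjusted p of at most 0.00103 (*Ier3*). Under the strict gate the calls of *Rel*, *Nfkbia* and *Malt1* against C1q-high cells ended. Of the 12 stress genes, 2 were higher and 5 lower in lymphoid than in C1q-high cells. The part of the macrophage RNA in the lymphoid gate in these values was not tested.

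Of the other 40 pathway genes, 39 were tested against C1q-low cells, with 6 higher and 23 lower in lymphoid cells, and 38 against C1q-high cells, with 6 higher and 14 lower.

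A small gate of 319 non-lymphoid cells with at least 3 UMIs over *Ccr7* and *Fscn1*, which mark mature dendritic cells, was added after the data had been seen and is described without a test. It held 11 to 73 cells per mouse, and 90 of the 319 cells also lay in the C1q-low gate. Its score of 144.0 to 167.6 lay above that of C1q-low cells in 8 of 8 mice. Of the 36 members 11 were higher and 5 lower than in C1q-low cells in all 8 mice. The share of all genes with such signs was not computed for this gate, so these counts have no background. *Relb*, the subunit of the alternative pathway, averaged 562 ± 103 CPM there (SD, n = 8 mice) against 76.8 ± 8.61 in C1q-low cells, and *Traf1* 1311 ± 181 against 382 ± 63.0 CPM. *Bcl2a1d* (990 ± 85.9 against 245 ± 55.0 CPM) and *Marcksl1* (686 ± 121 against 196 ± 20.8 CPM) were higher in all 8 mice as well. The 5 members that were lower in all 8 mice were *Clec4e* (145 ± 58.5 against 630 ± 92.1 CPM), *Sod2* (175 ± 78.7 against 491 ± 59.6 CPM), *Tnfaip2* (107 ± 74.2 against 250 ± 18.9 CPM), *Irak2* (40.5 ± 12.9 against 83.1 ± 7.71 CPM) and *Irak3* (15.5 ± 6.47 against 35.2 ± 5.77 CPM).

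**Figure D2:**
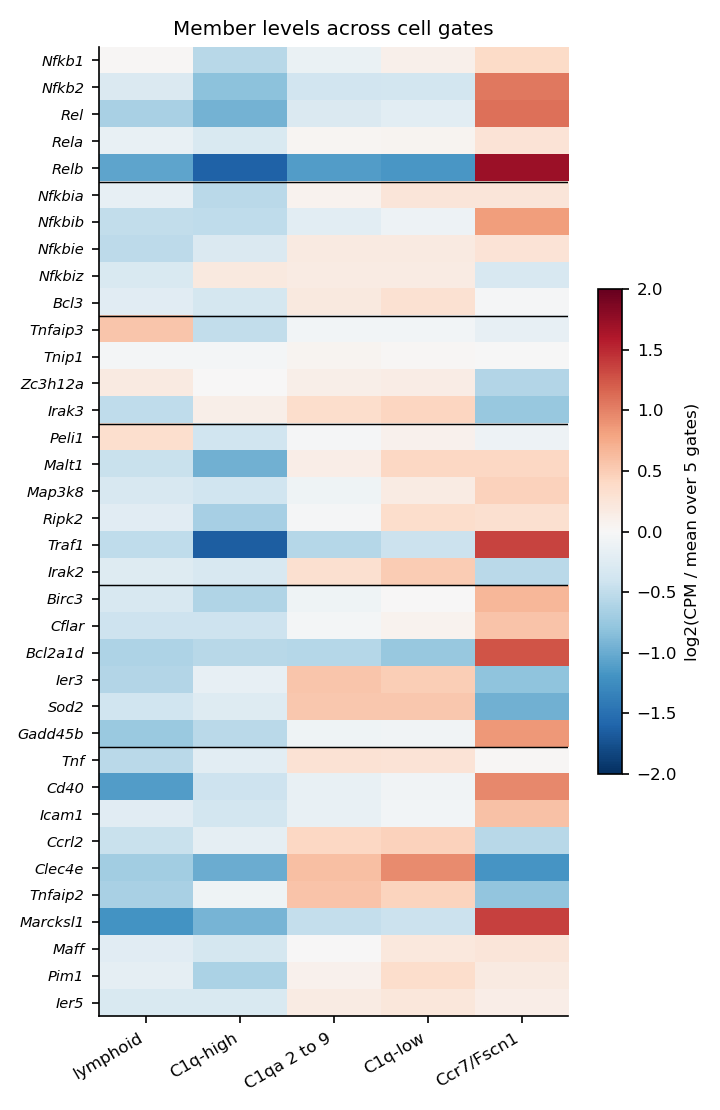
Heat map of the mean CPM over 8 mice of each member in 5 cell gates, as the log2 ratio to that member's mean over the gates, with members grouped by role. *Relb*, *Traf1*, *Bcl2a1d* and *Marcksl1* stand out in the *Ccr7* and *Fscn1* gate and *Clec4e* in C1q-low cells.

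Fewer members were called between tumor lines than between gates, and the same held for all genes. At least 26.9% of genes were called per direction between gates and at most 2.65% between lines. The contrast is therefore not a trait of the members. All line comparisons share mice (both resistant lines are set against the same 2 parental mice), so they are given side by side and were not set against each other. In all CD45+ cells of E0771-Res1 against parental tumors, edgeR called no member, where 0.0442% of 11313 genes were called. The lowest edgeR adjusted p was 0.191 (*Peli1*), 10 members had an unadjusted p under 0.05, and DESeq2 also called 0. The members' median was 0.06, with 19 positive and 17 negative, given without the values over all genes. The count was 2 without E0771-Res1 replicate 1 and 0 without any other mouse. E0771-Res1 replicate 3 held the highest value of the 8 mice for 20 of the 36 members, and E0771-Res1 replicate 1 for none. No share of all genes was set beside this count, that of unadjusted p, or the counts with 1 mouse left out here and below. None of these counts is a trait of the members.

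In E0771-Res2 against parental tumors, 3 members were lower and 1 higher in all CD45+ cells, where 2.40% of genes were lower and 2.15% higher. The median was -0.14 over the members, 28 of 36 being negative, and 0.01 over all genes tested. No share of signs over all genes was set beside the count of negative members. *Nfkbie*, which encodes IkB epsilon (chr17:45555703-45563169), stood at 142 and 156 CPM for parental, 119, 126 and 138 for E0771-Res1 and 103, 105 and 114 for E0771-Res2 mice. The E0771-Res2 mice lay below all others (log2 difference to parental -0.48 ± 0.10, edgeR adjusted p = 0.0122). *Bcl3*, a nuclear IkB protein that works with p50 and p52, stood at 64.9 and 66.3 CPM in parental and 44.3, 46.6 and 44.3 CPM in E0771-Res2 mice (-0.55 ± 0.12, edgeR adjusted p = 0.0205). *Peli1* stood at 160 and 186 CPM in parental and at 133, 139 and 133 CPM in E0771-Res2 mice (-0.37 ± 0.09, edgeR adjusted p = 0.0397). Parental and E0771-Res2 mice did not overlap in any of these genes. They were called on these same mice, so the separation adds no support, here and for called genes below. No share of all genes without overlap was set beside it.

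*Irak3*, an inhibitory member of the IRAK family known from endotoxin tolerance, was the member that was higher. It stood at 23.9 and 24.2 CPM for parental, 28.7, 30.9 and 28.8 for E0771-Res1 and 35.4, 32.2 and 33.9 for E0771-Res2 mice, with no overlap between the lines (0.49 ± 0.12 against parental, edgeR adjusted p = 0.0278). This call ended under DESeq2, which called 4 members lower and 0 higher, and without parental replicate 1 or 3 or E0771-Res2 replicate 1 or 3. Of the 39 other pathway genes tested, 2 were lower and 1 higher. The makeup of the kept cells differed as well. C1q-low cells made up 44.0 to 50.4% in parental and 37.7 to 42.0% in E0771-Res2 mice, cells with 2 to 9 *C1qa* UMIs 13.6% in both parental and 19.4 to 21.2% in E0771-Res2 mice, and C1q-high cells 17.0 to 18.8% and 17.3 to 26.0%. The score of the 12 stress genes was 90.4 and 88.0 per 10000 UMIs in parental and 97.2, 118.8 and 112.9 in E0771-Res2 mice, with *Jun* (0.88) and *Dusp1* (0.61) called higher and *Socs3* (-0.47) lower. The part of makeup and stress genes in the member differences was not tested. With 1 mouse left out, the count of 4 members became 0 without parental replicate 1 or 3, 7, 6 and 6 without E0771-Res1 replicates 1, 2 and 3, and 1, 3 and 1 without E0771-Res2 replicates 1, 2 and 3. A single parental mouse is then assumed to vary like the other groups. No share of all genes was set beside the counts with 1 mouse left out.

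Between the resistant lines, *Marcksl1*, which encodes a MARCKS-related actin-binding protein (chr4:129513581-129515985), was the member called in all CD45+ cells, where 1.80% of genes were lower in E0771-Res2. It stood at 176 and 173 CPM for parental, 189, 205 and 215 for E0771-Res1 and 141, 152 and 155 for E0771-Res2 mice, so that the lines did not overlap (E0771-Res2 minus E0771-Res1 -0.45 ± 0.08, edgeR adjusted p = 0.00638). The members' median was -0.23, with 24 of 36 negative. No median or share of signs over all genes was set beside these values. The count was 18 without E0771-Res1 replicate 1 and 3 without replicate 2 of the same line. No share of all genes was set beside these 2 counts, so the change is not a trait of the members.

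C1q-high myeloid cells were where the module was lowest in E0771-Res2 tumors. The mean score was 84.8 ± 2.07 (SD, n = 2) in parental, 83.7 ± 19.0 (n = 3) in E0771-Res1 and 66.2 ± 1.70 (n = 3) in E0771-Res2 mice. E0771-Res1 replicate 1 (66.6) lay within the range of the E0771-Res2 mice. Of the 36 members, 33 were negative in E0771-Res2 against parental, with a median of -0.43, against 4531 of 9127 genes and a median of 0.00 overall. edgeR called 5 members lower and none higher, where 1.47% of genes were lower.

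*Nfkbie* stood at 129 and 158 CPM for parental, 96.1, 122 and 102 for E0771-Res1 and 78.0, 82.2 and 70.1 for E0771-Res2 C1q-high cells. The E0771-Res2 mice were below all others, and the log2 difference to parental was -0.90 ± 0.14 (edgeR adjusted p = 0.00154). *Peli1* (chr11:21091291-21150323) stood at 139 and 162 CPM for parental, 100, 94.9 and 108 for E0771-Res1 and 92.1, 92.7 and 85.8 for E0771-Res2 mice. Both resistant lines lay below parental, by -0.73 ± 0.12 for E0771-Res2 (edgeR adjusted p = 0.00259) and -0.58 ± 0.12 for E0771-Res1 (edgeR adjusted p = 0.0429). *Peli1* was the 1 member called for E0771-Res1, where 0.318% of genes were lower. The members' median was -0.17, given without that of all genes.

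*Relb* (chr7:19606217-19629438) stood at 68.7 and 83.2 CPM for parental, 50.5, 50.3 and 55.7 for E0771-Res1 and 44.9, 46.1 and 48.1 for E0771-Res2 C1q-high cells. Here the 3 lines did not overlap (E0771-Res2 minus parental -0.69 ± 0.15, edgeR adjusted p = 0.0155), while E0771-Res1 minus parental (-0.54 ± 0.15) missed the threshold at an edgeR adjusted p of 0.105. *Marcksl1* stood at 144 and 155 CPM for parental, 169, 169 and 186 for E0771-Res1 and 91.9, 99.9 and 104 for E0771-Res2 mice. E0771-Res2 was below both other lines, by -0.61 ± 0.12 against parental (edgeR adjusted p = 0.00791) and -0.82 ± 0.10 against E0771-Res1 (edgeR adjusted p = 0.00014). It was the 1 member called between the resistant lines in these cells, where 1.37% of genes were lower. The members' median was -0.28, given without that of all genes.

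*Bcl2a1d* stood at 313 and 331 CPM for parental, 287, 262 and 340 for E0771-Res1 and 238, 238 and 240 for E0771-Res2 C1q-high cells (E0771-Res2 minus parental -0.44 ± 0.11, edgeR adjusted p = 0.0438). The E0771-Res2 values lay close together and below the rest. The other subunits had values of -0.56 ± 0.24 (*Rel*), -0.37 ± 0.16 (*Nfkb2*), -0.23 ± 0.14 (*Nfkb1*) and -0.15 ± 0.18 (*Rela*) in the same comparison and were not called, nor were *Nfkbia* (-0.50 ± 0.25), *Tnf* (-0.39 ± 0.25) and *Tnfaip3* (-0.07 ± 0.33). Of the 39 other pathway genes tested, 1 was lower (*Myd88*, the adaptor of Toll-like receptors, -0.70) and none higher. Of the 12 stress genes, *Jun* was higher (0.45) and *Ier2* (-0.64) and *Socs3* (-0.62) were lower, while their summed score overlapped between the lines (85.1 and 87.2 per 10000 UMIs in parental, 83.6, 92.9 and 92.1 in E0771-Res2 mice), and their part in the member differences was not tested.

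The calls in C1q-high cells rested on few mice. Counts with 1 mouse left out are given without the share of all genes called. That of *Bcl2a1d* also ended under DESeq2 and with the replicate block, and that of *Peli1* for E0771-Res1 with at least 10 myeloid UMIs per cell. For E0771-Res2 against parental, the count of 5 became 4 and 0 without parental replicates 1 and 3, 9, 7 and 13 without E0771-Res1 replicates 1, 2 and 3, and 2, 4 and 4 without E0771-Res2 replicates 1, 2 and 3. For E0771-Res1 against parental the count of 1 became 8 without E0771-Res1 replicate 3 and 0 without any other mouse, and for E0771-Res2 against E0771-Res1 it became 10, 3 and 2 without E0771-Res1 replicates 1, 2 and 3.

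**Figure D3:**
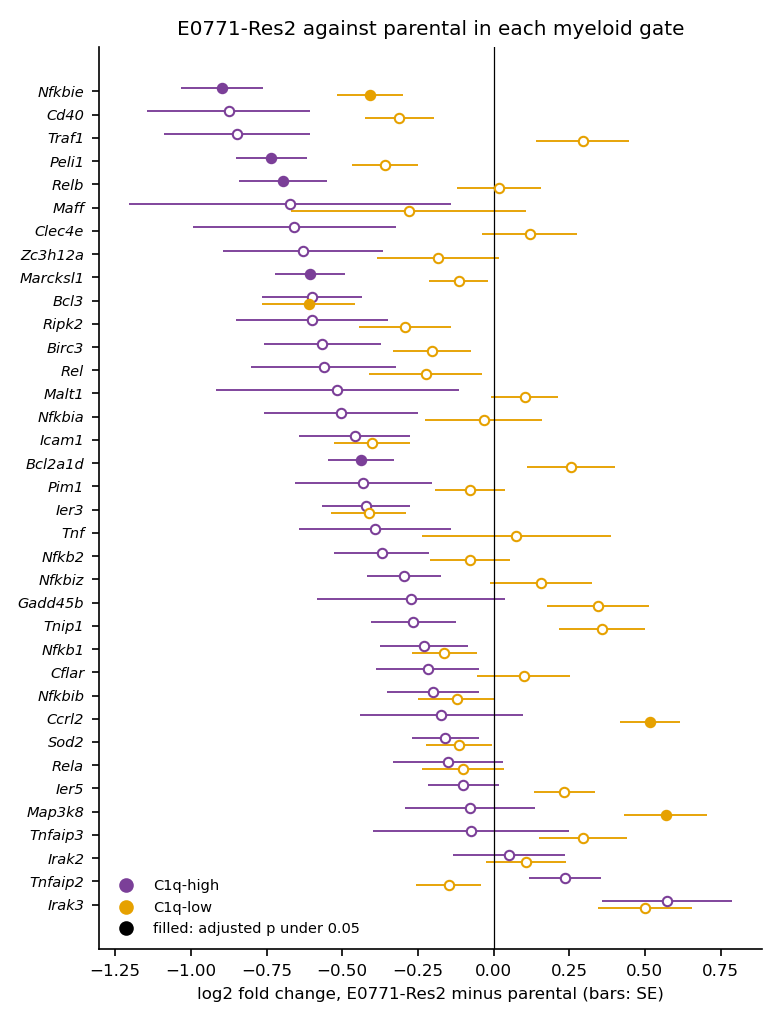
Log2 difference between E0771-Res2 and parental tumors (edgeR, SE bars) for each member in C1q-high and C1q-low myeloid cells. In C1q-high cells 33 of 36 members are negative, and in C1q-low cells 20 are negative and 16 positive.

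In C1q-low cells few members were called between lines, in both directions, and these small counts are not a trait of the members. The mean score was 113.8 ± 3.50 (SD, n = 2) in parental, 137.0 ± 16.2 (n = 3) in E0771-Res1 and 117.8 ± 6.37 (n = 3) in E0771-Res2 mice. In E0771-Res2 against parental tumors, 2 members were higher and 2 lower, where 2.14% of genes were higher and 2.65% lower, and the median was -0.08 over the members and 0.02 over all genes tested.

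*Ccrl2*, an atypical receptor that binds the chemoattractant chemerin (chr9:111054486-111057519), stood at 352 and 400 CPM for parental, 489, 478 and 468 for E0771-Res1 and 543, 513 and 576 for E0771-Res2 C1q-low cells. The lines did not overlap (E0771-Res2 minus parental 0.52 ± 0.10, edgeR adjusted p = 0.00424). *Map3k8*, the kinase Tpl2 that feeds ERK signaling from Toll-like receptors, stood at 134 and 133 CPM for parental, 186, 151 and 208 for E0771-Res1 and 175, 192 and 235 for E0771-Res2 mice. Both resistant lines lay above parental, and E0771-Res2 differed by 0.57 ± 0.14 (edgeR adjusted p = 0.0223).

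*Bcl3* stood at 74.6 and 83.3 CPM for parental, 56.3, 59.5 and 82.7 for E0771-Res1 and 53.8, 52.8 and 49.5 for E0771-Res2 C1q-low cells (E0771-Res2 minus parental -0.61 ± 0.15, edgeR adjusted p = 0.0247). *Nfkbie* stood at 160 and 170 CPM for parental, 152, 143 and 164 for E0771-Res1 and 121, 116 and 139 for E0771-Res2 mice (-0.41 ± 0.11, edgeR adjusted p = 0.0346). The E0771-Res2 mice were the lowest of the 8 in both genes. Of the 39 other pathway genes tested, 4 were lower (*Tlr2*, *Bcl10*, *Myd88* and *Ripk1*) and 2 higher, among them *Birc2* (0.62). Dissociation stress genes moved in these cells too, with 2 of 12 higher (*Dusp1* and *Atf3*) and 1 lower (*Socs3*), and their summed score was 96.8 and 92.6 per 10000 UMIs in parental and 111.3, 144.9 and 133.6 in E0771-Res2 mice. Their part in the member differences was not tested.

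For E0771-Res1 against parental, *Malt1* was the 1 member called in C1q-low cells, where 0.0830% of genes were higher. The members' median was 0.21 with 25 of 36 positive. No median or share of signs over all genes was set beside these values. *Malt1* stood at 439 and 416 CPM for parental, 607, 583 and 698 for E0771-Res1 and 454, 422 and 519 for E0771-Res2 C1q-low cells. The E0771-Res1 mice were above all others, by 0.55 ± 0.11 against parental (edgeR adjusted p = 0.0480), and E0771-Res2 was below E0771-Res1 by -0.45 ± 0.10 (edgeR adjusted p = 0.0105). In E0771-Res2 against E0771-Res1, *Nfkb1* and *Marcksl1* were lower as well, where 1.97% of genes were lower. The members' median was -0.20, given without that of all genes. *Nfkb1* stood at 165 and 186 CPM for parental, 193, 201 and 227 for E0771-Res1 and 161, 156 and 158 for E0771-Res2 mice (-0.40 ± 0.10 between the resistant lines, edgeR adjusted p = 0.0181). *Marcksl1* stood at 218, 216 and 227 CPM for E0771-Res1 and 173, 182 and 177 CPM for E0771-Res2 mice (-0.33 ± 0.09, edgeR adjusted p = 0.0298). In both genes the resistant lines did not overlap.

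Single mice decided some of these counts as well. Counts with 1 mouse left out are again given without the share of all genes called. With *C1qa* gates scaled to depth the calls of *Map3k8*, *Malt1* for E0771-Res1 against parental, *Nfkb1* and *Marcksl1* ended, as did that of *Nfkbie* under DESeq2 and that of *Bcl3* without dendritic cells. For E0771-Res2 against parental in C1q-low cells, the count of 4 became 0 and 2 without parental replicates 1 and 3, 6, 5 and 7 without E0771-Res1 replicates 1, 2 and 3, and 2, 3 and 2 without E0771-Res2 replicates 1, 2 and 3. For E0771-Res1 against parental, the count of 1 became 0 without parental replicate 1, parental replicate 3, E0771-Res1 replicate 3 or E0771-Res2 replicate 1, and 4 and 2 without E0771-Res1 replicates 1 and 2. Between the resistant lines the count of 3 became 14, 4 and 2 without E0771-Res1 replicates 1, 2 and 3, and 1 without E0771-Res2 replicate 3.

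**Figure D4:**
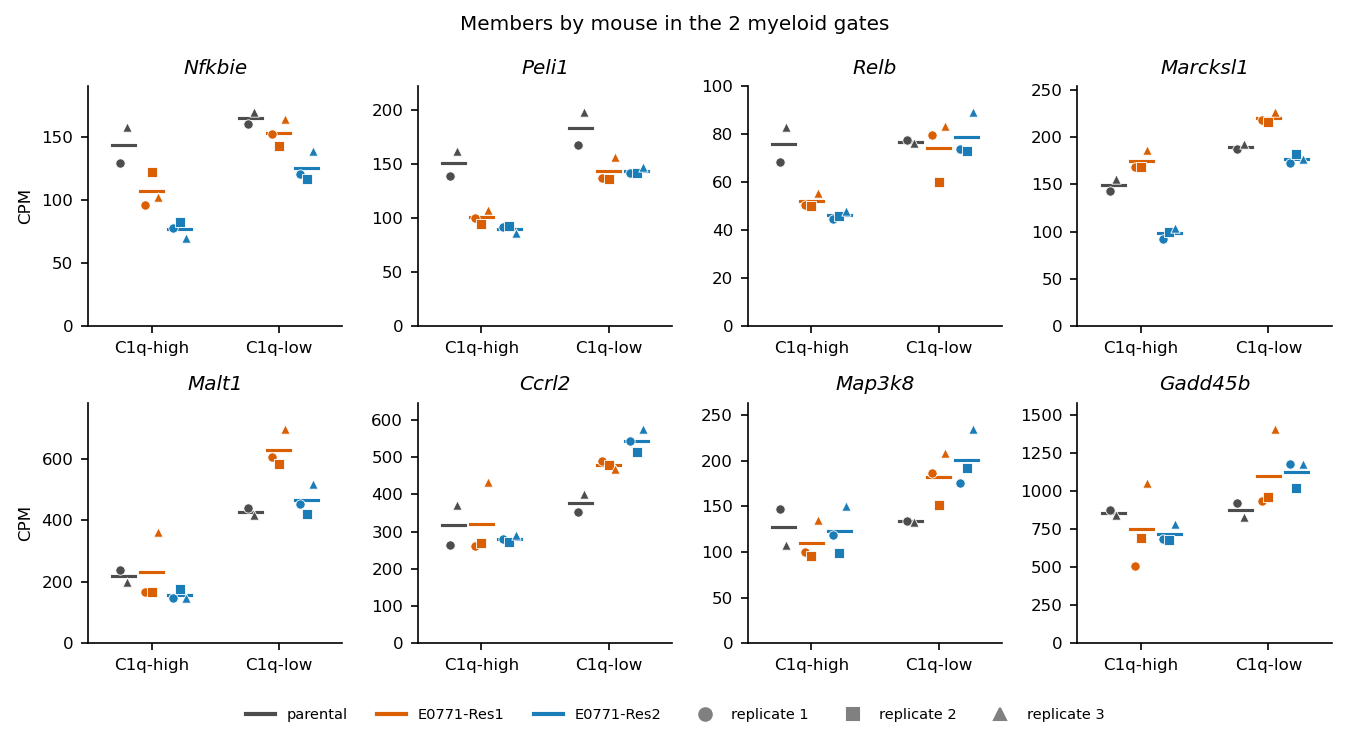
CPM of 8 members in each mouse (points) by tumor line, in C1q-high and C1q-low myeloid cells, with bars at the mean of each line. *Nfkbie* and *Relb* are lowest in E0771-Res2 C1q-high cells, and *Ccrl2* rises from parental to E0771-Res1 to E0771-Res2 in C1q-low cells.

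Lymphoid cells gave no called member between lines, where edgeR called 0.0433% of 9235 genes for E0771-Res1 against parental, 1.05% for E0771-Res2 against parental and 0.899% for E0771-Res2 against E0771-Res1. Unadjusted p under 0.05 was reached by 7, 6 and 8 members, and DESeq2 also called 0 in each comparison. No share of all genes was set beside the unadjusted counts or those with 1 mouse left out. The lowest edgeR adjusted p were 0.240 (*Ccrl2*), 0.0988 (*Irak3*) and 0.0565 (*Tnfaip2*). *Irak3* stood at 12.6 and 13.9 CPM for parental, 16.8, 10.6 and 15.3 for E0771-Res1 and 24.2, 28.2 and 26.1 for E0771-Res2 lymphoid cells, so that the E0771-Res2 mice were the highest of the 8. It was not called and had only 196 UMIs over all lymphoid cells. No share of all genes with such an order was set beside it. The part of the macrophage RNA in this gate was not tested. The medians over the members were 0.16, 0.10 and -0.07, given without those of all genes. Without E0771-Res1 replicate 1 the counts were 3, 1 and 4, and without E0771-Res2 replicate 2 they were 2 for E0771-Res2 against parental and 1 for E0771-Res2 against E0771-Res1.

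The effect of a resistant line differed between the myeloid gates for a few members, which was tested as the interaction of gate and line with mouse as a block. For E0771-Res1, *Bcl2a1d*, *Map3k8* and *Gadd45b* had a lower effect in C1q-high than in C1q-low cells, where 0.0995% of the 9046 genes did. For E0771-Res2, *Nfkbia*, *Bcl2a1d*, *Map3k8* and *Gadd45b* did, where 0.398% of genes did. The medians over the members were -0.33 and -0.41, against -0.02 and -0.03 over all genes tested. In each, 34 of 36 members were negative, given without the share of negative signs over all genes. The lines share the parental mice here too.

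*Gadd45b*, a stress sensor that restrains JNK signaling (chr10:80930073-80932204), stood at 875 and 846 CPM in C1q-high cells of parental mice, 511, 692 and 1058 for E0771-Res1 and 687, 678 and 786 for E0771-Res2 mice. In C1q-low cells it stood at 924 and 832, then 936, 960 and 1412, then 1181, 1023 and 1180 CPM. The gates were close in parental mice and far apart in resistant ones (interaction -0.60 ± 0.12, edgeR adjusted p = 0.0401, for E0771-Res1 and -0.64 ± 0.12, edgeR adjusted p = 0.00884, for E0771-Res2). *Bcl2a1d* was higher in C1q-high than in C1q-low cells of both parental mice (313 against 188 and 331 against 202 CPM). In resistant mice its C1q-low values were 348, 214 and 303 CPM (E0771-Res1) and 248, 214 and 243 CPM (E0771-Res2), above both parental mice (interaction -0.73 ± 0.13, edgeR adjusted p = 0.0307, and -0.72 ± 0.13, edgeR adjusted p = 0.00884).

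*Map3k8* stood at 147 and 107 CPM in C1q-high cells of parental mice, 99.7, 95.9 and 135 for E0771-Res1 and 118, 99.4 and 151 for E0771-Res2 mice, which overlapped, unlike its C1q-low values above (interaction -0.73 ± 0.15, edgeR adjusted p = 0.0499, and -0.67 ± 0.15, edgeR adjusted p = 0.0318). *Nfkbia* stood at 1255 and 1296 CPM in C1q-high cells of parental mice and 847, 966 and 907 in E0771-Res2 mice, against 1971 and 1736, then 1671, 1818 and 2007 CPM in C1q-low cells (interaction -0.49 ± 0.11, edgeR adjusted p = 0.0374). As a description, the module score of C1q-low minus C1q-high cells was 29.0 ± 5.57 (SD, n = 2) in parental, 53.3 ± 3.40 (n = 3) in E0771-Res1 and 51.6 ± 5.38 (n = 3) in E0771-Res2 mice. The score sums the called genes in the same mice, with *Nfkbia* and *Gadd45b* among its most counted members, so it adds no support.

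With 1 mouse left out, the E0771-Res1 interaction called 1 and 0 members without parental replicates 1 and 3, 0, 1 and 5 without E0771-Res1 replicates 1, 2 and 3, and 1 without E0771-Res2 replicate 1. The E0771-Res2 interaction called 1 without either parental mouse, 6 and 9 without E0771-Res1 replicates 1 and 3, and 0 and 1 without E0771-Res2 replicates 1 and 3. With the *C1qa* gates scaled to each cell's depth the counts were 0 and 1, and DESeq2 called 0 and 3. No share of all genes was set beside the counts of this paragraph.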

How the data were processed

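The authors pooled cells that carried multiplexing oligonucleotides, made Chromium 3′ v3.1 libraries, and deposited 1 matrix of raw UMI counts per mouse, genes by cells. The submitters' notes name Cell Ranger 6.1.2 and mm10. Columns of tags were left out. Counting is by the 3′ end, and 9 members overlap a gene on the opposite strand. No doublet caller and no correction for free RNA was run. After the cell filters, mt-, Rpl, Rps and Gm genes (20.4% of UMIs) were left out, and UMIs were summed per mouse and gate, with at least 10 cells per sum. edgeR 4.0.16 in R 4.3.3 was used with TMM, filterByExpr and the robust quasi-likelihood test, in 1 fit over the 3 lines or with mouse as a block for gates and interactions. The SE is the absolute log2 difference divided by the square root of F. P-values were adjusted by Benjamini-Hochberg over all genes tested, with calls at an adjusted p under 0.05. CPM are UMIs per 1000000 of kept genes per mouse and gate. Steps were tested on simulated data. DESeq2 1.42.0 and the gates and filters of the closing section were alternatives. In each comparison the called members are counted, with the 5 largest per direction named where over 10 pass, and *Tnf*, *Nfkbia*, *Tnfaip3* and the Rel-family genes are given in each class. The members and lists were chosen with earlier results of these data known. Mice of 1 line differed beyond sampling noise (chi-square over its degrees of freedom 2.91 to 14.8 between replicates), so none was taken for a repeat. A gene of the pathway list is counted but its values are not reported here.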

Additional observations from a re-analysis of the deposited data

Results flagged for a closer look

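The effect of a resistant line differed between C1q-high and C1q-low myeloid cells of the same mice by the test of the interaction for 3 members with E0771-Res1 tumors and for 4 with E0771-Res2 tumors. Of the 9046 genes tested, 0.0995% had a lower effect in C1q-high cells for E0771-Res1 and 0.398% for E0771-Res2. The log2 effect of E0771-Res1 was lower in C1q-high cells by an interaction of -0.73 for *Bcl2a1d*, -0.73 for *Map3k8* and -0.60 for *Gadd45b*. That of E0771-Res2 was lower by -0.72 for *Bcl2a1d*, -0.67 for *Map3k8*, -0.64 for *Gadd45b* and -0.49 for *Nfkbia*. Both sets of values rest on the same 2 parental mice. DESeq2 called 0 members for E0771-Res1 and 3 for E0771-Res2, and depth-scaled *C1qa* gates also left fewer calls. Without 1 mouse of the resistant line, either count fell to as low as 0. No share of all genes was set beside these alternative counts.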

How the results depend on the processing

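The calls between gates changed little, and those between lines depended on single mice and settings. No share of all genes was set beside the counts of this section, so a change in a count is not a trait of the members. Counts of members called, where they moved by over 1.5 times, are given in the order E0771-Res1 against parental, E0771-Res2 against parental, E0771-Res2 against E0771-Res1. With DESeq2 the last was 5 in all cells, 4 in C1q-high and 5 in C1q-low cells, the first 3 in C1q-low cells, and the E0771-Res1 interaction 0. Without the filter on low counts it was 6 for the last in all cells, 3, 13 and 8 in C1q-high, 6, 8 and 14 in C1q-low and 2, 2 and 3 in lymphoid cells, and 8 and 12 for the interactions. Same-numbered mice were not paired (correlations of deviations -0.041 to 0.0647), and the replicate block gave 6 for the last in all cells, 3 in C1q-high and 7 in C1q-low cells, 2 for the first in C1q-low cells, and 1 and 2 for the last pair in lymphoid cells. Without the mouse as a block no gate count moved that far. Depth-scaled *C1qa* gates gave 2 for the last in C1q-high cells, 0 and 1 for the first and last in C1q-low cells, and 0 and 1 for the interactions. Without dendritic cells these were 3 and 6 for the last in C1q-high and C1q-low cells and 0 for the E0771-Res1 interaction. At 10 myeloid UMIs the first was 0 in C1q-high and the second 8 in C1q-low cells. With 1 mouse left out, the counts ran from 0 to 2, 0 to 7 and 1 to 18 in all cells, 0 to 8, 0 to 13 and 1 to 10 in C1q-high, 0 to 4, 0 to 7 and 1 to 14 in C1q-low, 0 to 3, 0 to 2 and 0 to 4 in lymphoid cells, and 0 to 5 and 0 to 9 for the interactions. The score of E0771-Res1 minus parental ran from 2.16 to 20.8 in all, -11.3 to 7.45 in C1q-high, 14.9 to 31.1 in C1q-low and 7.24 to 18.6 in lymphoid cells, and that of E0771-Res2 minus parental from -7.19 to -3.31, -20.1 to -17.2, 0.265 to 6.42 and 4.74 to 8.59. The strict lymphoid gate moved the last from 6.66 to 15.3. Other alternatives stayed within 1 SD between mice but moved a score difference by over 1.5 times. Without *Nfkbia*, E0771-Res1 minus parental went from 10.8 to 4.72 in all, from -1.09 to -4.17 in C1q-high, from 23.2 to 14.5 in C1q-low and from 14.0 to 8.11 in lymphoid cells. The C1q-high value was 3.50 after thinning, -2.36 with mitochondrial, Rpl, Rps and Gm genes kept, -0.635 with depth-scaled gates and -0.241 without dendritic cells. E0771-Res2 minus parental went from -5.33 to -3.23 in all cells after thinning, and in C1q-low cells from 3.94 to 6.58 after thinning, 2.21 with those genes kept and 0.598 with depth-scaled gates. In lymphoid against C1q-low cells, *Relb* reversed to 0.020 without dendritic cells and 0.11 under the strict gate, and *Nfkb2* to 0.027 under the latter. Of 2024 values of called members under alternatives, 1861 kept direction and side of the threshold, 160 kept the direction alone and 3 reversed. This total pools calls between gates with those between lines and of interactions, and the latter lost the threshold more often. The causes were not tested. A parental group of 2 and as few as 68 lymphoid cells in a mouse limit what these data can show.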
